A study of Mus musculus with 20 samples.

Results

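Sterol synthesis was followed through Hmgcs1, Fdft1 and Sqle in 3T3-L1 cells, a mouse embryo fibroblast line that turns into fat-storing adipocytes after hormone induction. The members were all probe sets whose only annotated gene symbol is one of these 3 genes. This gave 4 of the 13069 probe sets on both array types that are not controls: 2 for Hmgcs1 and 1 each for Fdft1 and Sqle, all on the array type called array A here. The groups were late cells (days 4, 7 and 28 after induction, n = 3), middle cells (days 2 and 3, n = 2), early cells (6, 12 and 24 hours, n = 3) and cells before induction (preconfluent and confluent, n = 2). All are 3T3-L1 cells, and all but those before induction had received the MDI cocktail, named for isobutylmethylxanthine, dexamethasone and insulin. Each of the 10 time points was 1 sample per array type, and uninduced cells of the same age in culture were not analysed here, so the hormones, time in culture and handling cannot be told apart. A 3T3-L1 culture is a single cell line and not fat tissue, and the share of its cells that became adipocytes is not given in the labels.

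Hmgcs1 encodes the cytosolic HMG-CoA synthase, which joins acetyl-CoA to acetoacetyl-CoA at the entry of the mevalonate pathway. Fdft1 encodes squalene synthase, which fuses a pair of farnesyl pyrophosphate molecules in the step that commits the pathway to sterols. Sqle encodes squalene epoxidase, which adds oxygen to squalene before it is closed into the sterol ring. Genes of the pathway are classically switched on together by the transcription factor SREBP-2 when membranes of the endoplasmic reticulum are short of cholesterol. Adipocytes store much of their free cholesterol at the surface of the fat droplet, and the acetyl-CoA that feeds this pathway also feeds fatty acid synthesis.

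The promoter bases of 2 genes upstream of Fdft1 in the pathway are shown because both hold boxes of NF-Y, a known partner of SREBP, and Hmgcs1 also holds a form of the element that SREBP binds. Hmgcs1 lies at chr13:119690351-119708260, Fdft1 at chr14:63145150-63181687 and Sqle at chr15:59315092-59331193 (RefSeq, GRCm38.p6). Of the 3 members, a promoter sequence was at hand for Hmgcs1. The 250 bases before its gene start are given 5′ to 3′ on the plus strand, as are those of Idi1, the isopentenyl pyrophosphate isomerase further down the pathway. Capitals mark matches to TCACNCCAC, a form of the sterol regulatory element, and to the NF-Y box CCAAT, each on either strand.
Hmgcs1, chr13:119690101-119690350: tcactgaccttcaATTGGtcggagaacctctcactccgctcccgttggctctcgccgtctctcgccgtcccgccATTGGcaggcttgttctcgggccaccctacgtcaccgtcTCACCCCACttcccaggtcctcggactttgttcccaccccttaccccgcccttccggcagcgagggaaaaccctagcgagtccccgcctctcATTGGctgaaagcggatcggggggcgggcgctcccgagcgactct
Idi1, chr13:8885356-8885605: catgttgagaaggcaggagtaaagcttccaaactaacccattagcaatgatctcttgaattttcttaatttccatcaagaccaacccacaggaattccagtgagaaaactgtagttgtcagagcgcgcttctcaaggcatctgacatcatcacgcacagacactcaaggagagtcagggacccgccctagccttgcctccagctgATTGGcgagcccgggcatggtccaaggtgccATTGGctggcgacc

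The Hmgcs1 window held TCACCCCAC once, starting 137 bases before the gene start, a form of the element found in 0.496% of the 32851 mouse promoter windows of this length. The looser TCACNCCAC, which includes it, was found in 1.05% of them. Hmgcs1 also held 3 CCAAT boxes, at 237, 176 and 45 bases before the start, and Idi1 held 2, at 45 and 14 bases. CCAAT was found in 33.8% of all windows and together with TCACNCCAC in 0.326%. Of 21 genes of the cholesterol synthesis list, 16 had a window in the table: 15 of these held CCAAT, and Hmgcs1 alone held TCACNCCAC. The Sp1 box GGGCGG, present in 32.7% of windows, was found 2 times in Hmgcs1 and 1 time in Idi1, and the E-box CACGTG, present in 6.02%, in neither. These are matches of letters and no binding was measured.

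**Figure D1:**
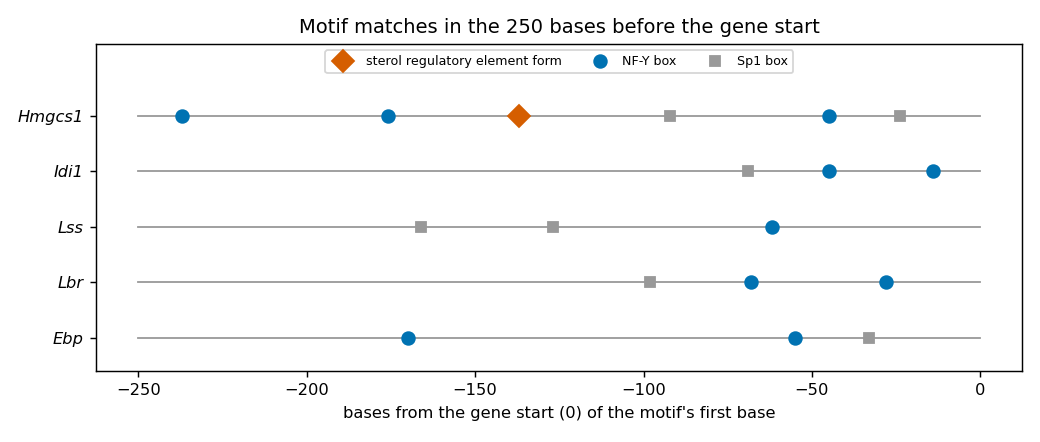
Motif matches in the 250 bases before the gene start of 5 cholesterol synthesis genes that were tested on the arrays; the horizontal axis is the distance in bases from the gene start, and each symbol is 1 match on either strand. Hmgcs1 is the gene with a match to the sterol regulatory element form, and all 5 genes have at least 1 NF-Y box.

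Values are linear intensities as deposited by the authors, already scaled to a common level per array. Values below 136 on array A, the floor of this report, were set to it before taking log2. Between 3100 and 3354 probe sets per array of type A lay above the filter limit of 182. The cells changed as their labels say: the summed intensity of 6 probe sets for 5 adipocyte markers on array A (Fabp4, Adipoq, Lpl, Lipe and Pparg) lay between 89903 and 106848 in late cells, against 2329 to 10174 before induction. The 6 fibroblast markers were all lower in value in late cells than before induction, with 1, Dlk1, called by its brightest probe set. Dlk1, which holds back adipocyte formation, lay at 1700, 685 and 3140 in late cells, against 5260 and 7910 before induction (4.19-fold lower, limma adjusted p = 0.0366, called in 3 of 10 fits that left out 1 time point). It was also called lower in late than in early cells (4.17-fold, limma adjusted p = 0.0201, kept in 7 of those 10 fits). The summed fibroblast markers on array A lay between 10016 and 32528 in late cells, against 35743 to 50680 before induction. Vim lay between 6180 and 8410 in all 10 samples, and a further probe set of Col1a2 was 3.81-fold lower in late cells than before induction (limma adjusted p = 0.0481, called in 2 of those 10 fits).

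Markers of other cell types were mixed. The macrophage genes Csf1r, C1qa and Adgre1, the endothelial genes Cdh5 and Pecam1 and the muscle gene Acta1 lay below the floor in all samples. The macrophage genes Cd14 and Lyz2, the endothelial gene Kdr, the muscle genes Myog (323 to 906) and Ckm (1830 to 3670 on its brighter probe set) and the hepatocyte gene Serpina1a (391 to 673 on its brighter probe set) lay above it in all. Des, a muscle filament gene, lay at 226, 321 and 456 in late cells, against 124, 40 and 92 in early cells and 129 and 32 before induction. Its early values and those before induction all lay below the floor of 136, and it passed the filter through late cells alone. It was called higher in late cells against both, but these calls rest on floored values and carry no weight as tests. Cd14 was called lower in late cells than before induction (limma adjusted p = 0.0391, kept in 3 of 10 fits that left out 1 time point). The part of these markers in the values of the sterol genes was not tested.

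P-values come from limma fits across all 7582 tested probe sets. With no replicate of any time point, they measure the spread between neighbouring time points, real change within a stage included. In such cultures fewer cells of a type and less RNA per cell cannot be told apart.

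Intensities of all 3 genes were lower at 6 hours than in either sample before induction, and later values were reached at different times. Hmgcs1 was read from its bright probe set, with 2050 in preconfluent cells, 1370 in confluent cells, 243 at 6 hours, 520 at 12 hours and 839 at 24 hours. It then stood at 2270 on day 2, 2910 on day 3, 2560 on day 4, 2170 on day 7 and 3090 on day 28. All 3 early values lay below every other value, the lowest at 6 hours, and the values from day 2 onward all lay above those before induction.

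Fdft1 lay at 3140 in preconfluent cells, 1840 in confluent cells, 473 at 6 hours, 815 at 12 hours and 692 at 24 hours. It was at its lowest on day 2 with 443, then at 1540 on day 3, 2200 on day 4, 1730 on day 7 and 2890 on day 28. The early and day 2 values lay below all others, and the late values overlapped those before induction.

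Sqle lay at 1040 in preconfluent cells, 443 in confluent cells, 46 at 6 hours, 114 at 12 hours and 143 at 24 hours. It then stood at 251 on day 2, 415 on day 3, 937 on day 4, 606 on day 7 and 749 on day 28. The values at 6 and 12 hours lay below the floor, so their order is not known, and the late values lay within the range seen before induction.

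**Figure D2:**
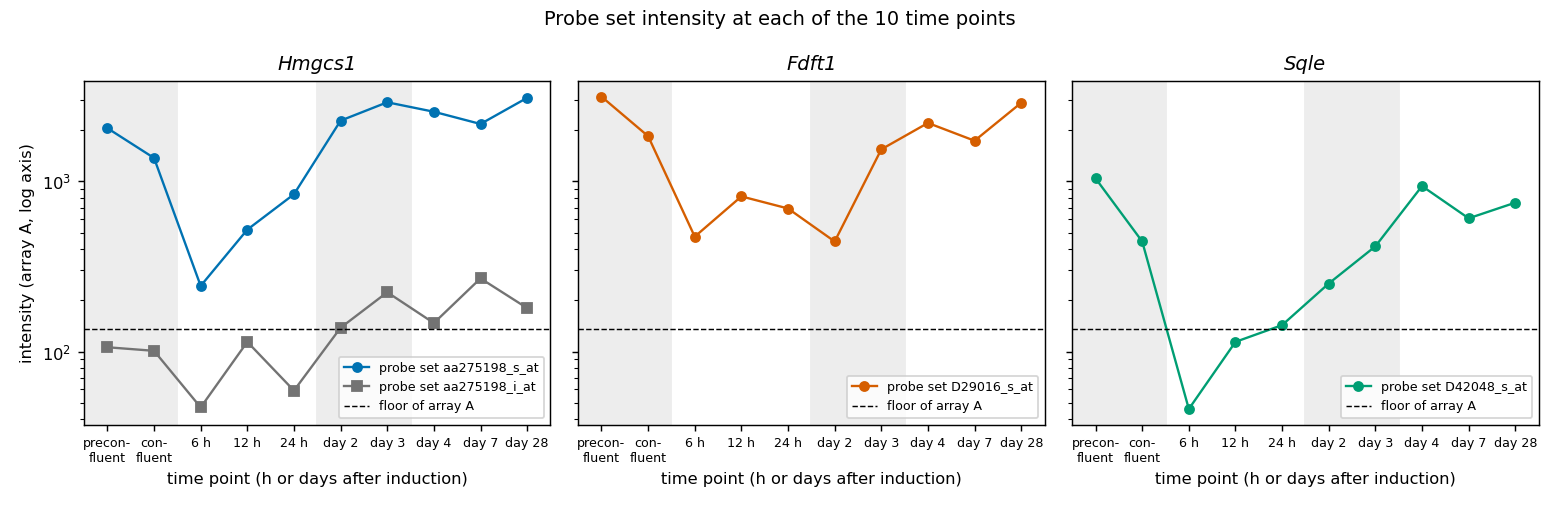
Intensity on array A (log axis) of each of the 4 probe sets at the 10 time points in order, 1 array per point; grey bands mark the 2 samples before induction and days 2 and 3, and the dashed line is the floor of 136. Hmgcs1 is lowest at 6 hours and Fdft1 on day 2, where Hmgcs1 already stands at 2270, and Sqle is below the floor at 6 and 12 hours.

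The second Hmgcs1 probe set was dim. It lay between 47 and 114 in the 5 samples up to 24 hours, all at or below the floor, and between 138 and 269 from day 2 to day 28. Its values are thus higher late than early, as for the bright probe set, but it passed the filter through days 3 and 7 alone and gives no measure of the early difference. It was not called in any comparison.

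Between confluent cells and 6 hours, a step with 1 sample on each side and therefore no test, Hmgcs1 was 5.64-fold lower and Fdft1 3.89-fold lower at 6 hours. Sqle was at least 3.26-fold lower. Drops of at least 2-fold at this step were seen in 6.52% of the 7582 tested probe sets, among them 3 of the 4 member probe sets. A drop as large as that of Hmgcs1 was seen in 17 probe sets (0.224%), one as large as that of Fdft1 in 49 (0.646%) and one as large as that of Sqle, with the floor in place, in 95 (1.25%). Values already differed before the hormones: confluent cells lay below preconfluent cells 1.5-fold for Hmgcs1, 1.71-fold for Fdft1 and 2.35-fold for Sqle.

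Early cells were set against cells before induction for the first day of induction. Sqle averaged 101 ± 49.8 (SD, n = 3) in early cells and 742 ± 422 (SD, n = 2) before induction, at least 4.91-fold lower early (log2 change -2.30 ± 0.40 SE, limma adjusted p = 0.0406). Hmgcs1 averaged 534 ± 298 (SD, n = 3) in early cells and 1710 ± 481 (SD, n = 2) before induction, 3.54-fold lower early (-1.82 ± 0.46 SE, limma adjusted p = 0.174). Fdft1 averaged 660 ± 173 (SD, n = 3) in early cells and 2490 ± 919 (SD, n = 2) before induction, 3.73-fold lower early (-1.90 ± 0.50 SE, limma adjusted p = 0.19). In each of the 3 genes every early value lay below both values before induction, which held for 3 of the 4 member probe sets and for 12.8% of all tested probe sets.

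Of the 4 member probe sets 1, Sqle, was thus called lower, against 0.158% of all tested probe sets. Its call held without the confluent sample (limma adjusted p = 0.0223) and was lost without any other time point. The adjusted p was then 0.239 without the preconfluent sample, 0.0917, 0.169 and 0.0983 without 6, 12 and 24 hours, 0.0583 without day 2 or day 3, and 0.0698, 0.062 and 0.0719 without days 4, 7 and 28. The log2 change stayed between -2.91 and -1.68 in these fits.

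Recovery was tested in steps. Middle cells against early cells separated the 3 genes by value. Hmgcs1 averaged 2590 ± 453 (SD, n = 2) in middle cells and 534 ± 298 (SD, n = 3) in early cells and rose 5.43-fold (2.44 ± 0.46 SE, limma adjusted p = 0.0353), the 1 call among the 4 member probe sets against 0.752% higher among all. Sqle averaged 333 ± 116 (SD, n = 2) in middle cells and 101 ± 49.8 (SD, n = 3) in early cells, at least 2.33-fold higher (1.22 ± 0.40 SE, limma adjusted p = 0.203). Fdft1 averaged 992 ± 776 (SD, n = 2) in middle cells and 660 ± 173 (SD, n = 3) in early cells, a log2 change of 0.36 ± 0.50 (SE, limma adjusted p = 0.903), with its 2 middle values 3.48-fold apart. Whether the changes differ between the 3 genes was not tested.

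The Hmgcs1 call was kept without 24 hours (limma adjusted p = 0.0151) and lost without each of the others. The adjusted p was 0.0558 without the preconfluent or the confluent sample, 0.0699 and 0.111 without 6 and 12 hours, 0.103 and 0.337 without days 2 and 3, and 0.0612, 0.0553 and 0.0525 without days 4, 7 and 28.

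Between late and middle cells Hmgcs1 had similar means, with 2610 ± 462 (SD, n = 3) in late cells and 2590 ± 453 (SD, n = 2) in middle cells (log2 change 0.01 ± 0.46 SE). Fdft1 was 2.69-fold higher in late than in middle cells (1.43 ± 0.50 SE) and Sqle 2.33-fold higher (1.22 ± 0.40 SE), neither called (limma adjusted p = 0.283 and 0.24). No member probe set was called in this step, where 0.29% of all were called by limma in either direction and 917 had an unadjusted p under 0.05, Fdft1 and Sqle among them (unadjusted p = 0.0163 and 0.0104).

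Late cells against early cells, a comparison added to the fit after the values had been seen, was called higher for 3 of the 4 member probe sets, against 7.16% of all tested probe sets. Hmgcs1 was 5.45-fold higher in late cells (2.45 ± 0.41 SE, limma adjusted p = 0.00385) and Sqle at least 5.44-fold (2.44 ± 0.35 SE, limma adjusted p = 0.00187). Both calls were kept without any 1 time point, with highest limma adjusted p-values of 0.0173 and 0.0119. For the bright Hmgcs1 probe set, Fdft1 and Sqle every late value lay above every early value, as in 14.5% of all tested probe sets. The dim Hmgcs1 probe set is not counted here, since all its early values lay at the floor. Fdft1 was 3.45-fold higher in late cells (1.79 ± 0.45 SE, limma adjusted p = 0.0242). Its adjusted p was 0.085, 0.0546 and 0.0569 without 6, 12 and 24 hours and 0.0599 and 0.0789 without days 4 and 28, and its call was kept without each of the other 5.

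Between late cells and cells before induction no member was called. Hmgcs1 had a log2 change of 0.62 ± 0.46 (SE, limma adjusted p = 0.452), Fdft1 one of -0.11 ± 0.50 (SE, limma adjusted p = 0.927) and Sqle one of 0.15 ± 0.40 (SE, limma adjusted p = 0.866). None of the 4 member probe sets was called, where 10.9% of all were called by limma in either direction and 1903 had an unadjusted p under 0.05. The signs of Fdft1 and Sqle turned with the sample taken as the start: without the preconfluent sample their changes were 0.27 and 0.76, and without the confluent sample -0.50 and -0.47.

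By level the stages of Hmgcs1 ran from early through before induction to middle and late, the last pair overlapping. For Fdft1 the order was early, middle, late and before induction. Early and middle overlapped, and so did late and before. For Sqle it was early, middle, before induction and late. Middle lay above early and below the samples before induction, the confluent sample at 443 lying close to day 3 at 415, and late and before overlapped. Along the whole series a smooth curve changed for 3 of the 4 member probe sets, against 16.8% of all tested probe sets: Sqle (limma trend adjusted p = 0.000969), Hmgcs1 (0.0133) and Fdft1 (0.0215). The call of Hmgcs1 was lost without the preconfluent sample (0.0511) and without 12 hours (0.0654), and that of Fdft1 without the preconfluent sample (0.0599) and without day 28 (0.065).

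**Figure D3:**
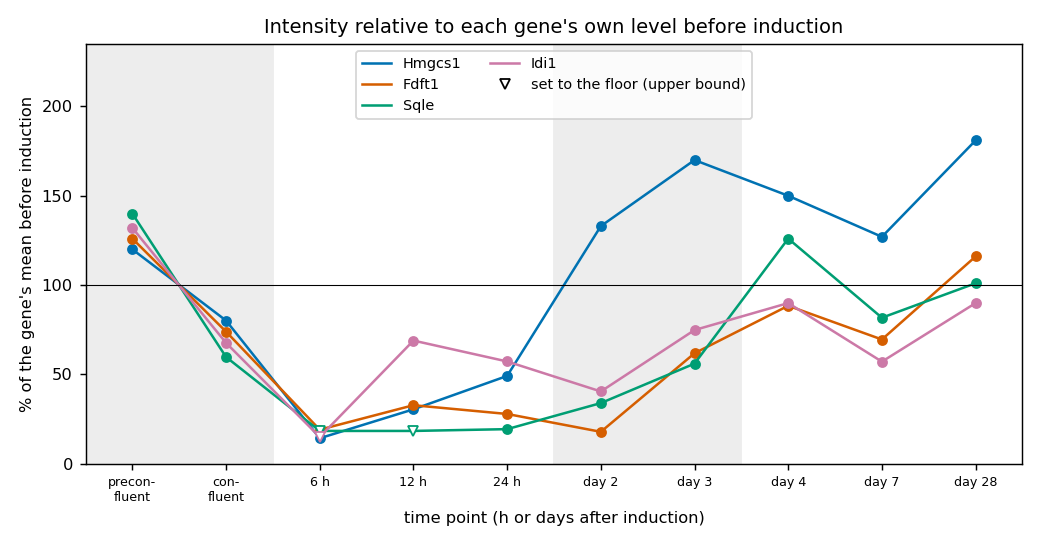
Intensity of Hmgcs1 (bright probe set), Fdft1, Sqle and Idi1 as a percent of the gene's own mean over the 2 samples before induction, at the 10 time points in order with 1 array per point; open triangles are values set to the floor and give upper bounds, and grey bands mark the samples before induction and days 2 and 3. At 6 hours the 4 genes stand between 14.2% and 19.0%, and on day 2 Hmgcs1 stands at 133% and Fdft1 at 17.8%.

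Set against its own mean before induction, each gene stood between 14.2% and 19.0% at 6 hours, with the floor in place for Sqle and Idi1. At 24 hours Hmgcs1 had reached 49.1%, Fdft1 27.8% and Sqle 19.3%. On day 2 Hmgcs1 stood at 133%, Sqle at 33.9% and Fdft1 at 17.8%, and on day 4 they stood at 150%, 126% and 88.4%. Hmgcs1, the entry enzyme, was thus above its starting mean from day 2 onward. Sqle was above its own on day 4, below it on day 7 (81.7%) and at 101% on day 28. Fdft1 passed its own on day 28 with 116%. That mean joins 2 unlike samples: Fdft1 on day 4 (2200) lay above the confluent sample (1840) but below the preconfluent one (3140). Each time point is 1 array, and the order of the genes was not tested.

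Of the pairs among the 3 genes, Fdft1 and Sqle had the highest correlation. Over the 10 time points the floored log2 values of Fdft1 and Sqle had a Pearson r of 0.90 (Spearman 0.88), and r was 0.96 without day 2 and 6 hours, the samples farthest from the median of Fdft1. Hmgcs1 had a Pearson r of 0.80 with Sqle (Spearman 0.63) and of 0.65 with Fdft1 (Spearman 0.44). Hmgcs1 with Fdft1 had an r of 0.81 without day 2 and 6 hours. Without 6 and 12 hours r was 0.88 for Fdft1 with Sqle, 0.65 for Hmgcs1 with Sqle and 0.41 for Hmgcs1 with Fdft1. These describe 10 arrays that all 3 genes share and carry no test.

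The rest of the pathway was thinly covered. Of the 21 genes of the cholesterol synthesis list 9 were on the arrays, and 7 passed the filter, the 3 members and Idi1, Lss, Lbr and Ebp. Mvd and Dhcr7 were below the floor in 10 and 9 of the 10 samples. Counting 1 probe set per gene, early cells against cells before induction gave a list median of -1.28 (all probe sets 0.00), with 6 of 7 genes lower in value and Sqle alone called. Late against early cells gave a median of 0.99 (all probe sets -0.05), with 4 of 7 higher in value, and the 3 members alone were called. In late cells against cells before induction the median was -0.11 (all probe sets -0.05) and no gene was called by limma.

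Idi1, which makes the reactive isoprene unit from which farnesyl pyrophosphate is built, was the gene outside the 3 with the lowest early value relative to its start. It lay at 1210 and 618 in preconfluent and confluent cells, 121 at 6 hours, 630 at 12 hours and 523 at 24 hours. It then lay at 369, 684, 822, 522 and 822 on days 2, 3, 4, 7 and 28. The sample at 6 hours was its lowest and lay below the floor, but 12 hours was back at the confluent level, and neither early against before (-1.28 ± 0.61 SE, limma adjusted p = 0.573) nor late against early (0.99 ± 0.55 SE, limma adjusted p = 0.266) was called. Its Pearson r over the 10 time points was 0.81 with Fdft1, 0.70 with Hmgcs1 and 0.69 with Sqle.

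Lss, which closes the epoxide of squalene into lanosterol directly after Sqle, had smaller differences in value. Its probe set aa670835_at lay at 610, 621 and 527 in early cells and at 1150 and 680 before induction (log2 change -0.60 ± 0.38 SE, limma adjusted p = 0.767). Its trend was called (limma adjusted p = 0.0435), and the call held only without the confluent sample (0.0475) when 1 time point was left out. The adjusted p was 0.052 without the preconfluent sample, 0.0682, 0.0654 and 0.0679 without 6, 12 and 24 hours, and 0.0835, 0.125, 0.132, 0.0713 and 0.1 without days 2, 3, 4, 7 and 28. The brighter Lss probe set aa670835_g_at lay between 611 and 1430, with a log2 change of -0.34 ± 0.35 (SE) early against before, and was not called in trend (limma adjusted p = 0.0631). Ebp, the sterol isomerase, lay between 155 and 551, and Lbr, a nuclear envelope protein with sterol reductase activity, between 20 and 1010. Neither was called (log2 changes early against before of -0.06 ± 0.39 SE and 1.07 ± 0.63 SE).

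**Figure D4:**
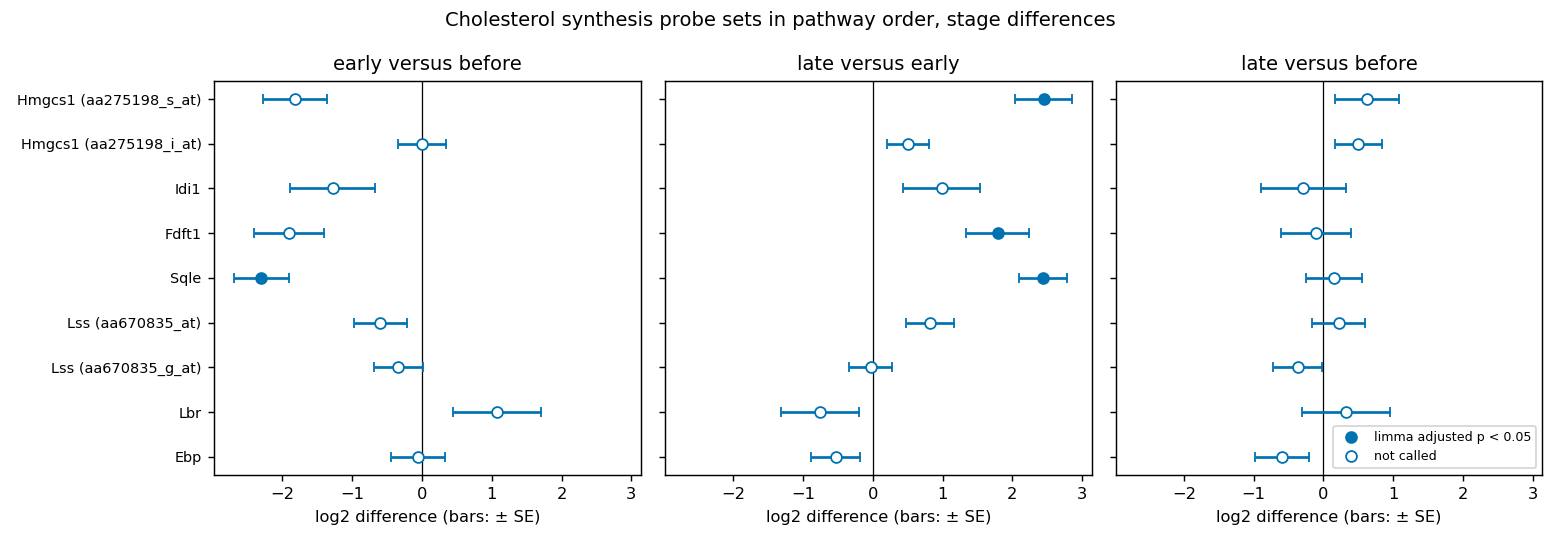
Log2 differences between stages with standard errors for the 9 tested probe sets of the cholesterol synthesis list in pathway order, for early against before (left), late against early (middle) and late against before induction (right); filled points have a limma adjusted p below 0.05. Sqle is filled at the left, the bright Hmgcs1 probe set, Fdft1 and Sqle are filled in the middle, and all points are open at the right.

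The machinery that senses sterols was poorly measured. Of 7 SREBP regulators 2 were on the arrays and 1, Mbtps1, the protease that makes the entry cut of SREBP, was tested. It lay between 845 and 1350 on its brighter probe set and was not called. Of the isoprenoid branch 4 of 9 genes were tested and none was called by limma in any comparison (Fnta, Fntb, Ggps1 and Dpagt1, with a list median of -0.20 early against before).

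Fatty acid synthesis, as a list, had a median near that of all probe sets in early cells. Of 14 genes 8 were tested: early against before the median was 0.14, with 5 higher and 3 lower in value and Scd1 called higher. Scd1, a desaturase of fatty acids, lay at 6890, 7590 and 4930 in early cells, against 1060 and 987 before induction (2.64 ± 0.32 SE, limma adjusted p = 0.0091). The call was lost without the preconfluent sample (0.0575) and without 12 hours (0.0735). Me1, malic enzyme, supplies reducing power for both lipid pathways. Its early values were lower than before induction, but this was not called (log2 change -1.15 ± 0.38 SE, limma adjusted p = 0.322). It lay at 977, 718 and 704 in late cells, at 143, 120 and 179 in early cells, and at 379 and 299 before induction (late against early at least 5.22-fold higher, limma adjusted p = 0.00182).

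In late against early cells 7 of the 8 fatty acid genes were higher in value. Of the 8, 6 were called higher, against 7.16% of all tested probe sets. Among the called were Scd1 (2.75 ± 0.29 SE), Gpam, which starts glycerolipid synthesis (2.47 ± 0.37 SE), and Me1 (2.38 ± 0.34 SE). In late cells against cells before induction 7 of 8 were higher in value and 5 were called higher. Of all tested probe sets 10.9% were called in either direction there. Among these 5 were Scd1 at 41.8-fold, Gpam at least 6.22-fold and Thrsp, a lipogenic nuclear protein, at least 4.57-fold, where the bounds give no order. The 3 sterol genes had log2 changes between -0.11 and 0.62 in the same comparison. Gpam also rose in middle against early cells (limma adjusted p = 0.0353), a call kept without the preconfluent sample, the confluent sample or 6 hours. Without 12 and 24 hours its adjusted p was 0.139 and 0.0615, without days 2 and 3 it was 0.139 and 0.255, and without days 4, 7 and 28 it was 0.0607, 0.0594 and 0.0525. Thrsp lay below the floor of array B (156) in 7 samples, and at 774, 751 and 623 in late cells. It passed the filter through late cells alone, and the spread of its other stages was not measured. Its calls in late cells, against middle cells as well, therefore carry no weight as tests. Whether the sterol and the fatty acid genes differ as groups was not tested.

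Of the 10 genes of the efflux and LXR list 3 were tested, and these 3 rose in late cells against cells before induction. In that comparison 10.9% of all tested probe sets were called in either direction. Abca1, a pump that hands cholesterol to apolipoprotein A-I, lay at 984, 1400 and 953 in late cells, against 298 and 445 before induction (3.01-fold higher, limma adjusted p = 0.0165). Abcg1, a pump that hands cholesterol to mature HDL, lay at 921, 1660 and 1170 in late cells, against 450 and 530 before induction (2.49-fold, limma adjusted p = 0.0367). Lpcat3, a phospholipid remodelling enzyme, was 2.18-fold higher in late cells (limma adjusted p = 0.0464). A second, dim Abca1 probe set lay below the floor in 8 samples.

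Without the preconfluent sample the adjusted p was 0.135 for Abca1, 0.183 for Abcg1 and 0.183 for Lpcat3. Abca1 was also lost without day 7 (0.0532). Abcg1 was lost without the confluent sample (0.0945), day 2 or 3 (0.0559 each), day 7 (0.101) and day 28 (0.0647). Lpcat3 was lost without the confluent sample (0.126), 6, 12 or 24 hours (0.0617, 0.0703 and 0.0599), day 4 (0.0835) and day 7 (0.118). In late against early cells all 3 were higher in value, and Abca1 and Lpcat3 were called (limma adjusted p = 0.0314 and 0.0307). Without 6, 12 or 24 hours these were 0.104, 0.0701 and 0.0511 for Abca1 and 0.0771, 0.0755 and 0.077 for Lpcat3. Without days 4 and 7 they were 0.051 and 0.104 for Abca1 and 0.0628 and 0.0975 for Lpcat3, and without day 28 Abca1 had 0.0505.

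Of 3 tested uptake and transport genes, Scarb1, the HDL receptor, was below the floor in the 6 samples up to day 2 and lay at 595 on day 3 and 1470, 747 and 854 in late cells. It was at least 7.20-fold higher in late cells than before induction (limma adjusted p = 0.00691, 0.0592 without the preconfluent sample). Npc1, which exports cholesterol from lysosomes, lay at 358, 703 and 370 in late cells, against 475 and 618 before induction, and was not called (log2 change -0.26 ± 0.36 SE, limma adjusted p = 0.709). Lrp1, a large lipoprotein receptor, lay at 2030, 1810 and 2670 in late cells, against 4490, 5390 and 5830 in early cells, and fell 2.43-fold (limma adjusted p = 0.0342). Without 6, 12 or 24 hours its adjusted p was 0.065, 0.105 and 0.0958, and without days 4 and 7 it was 0.0814 and 0.108. The ketone body list had 1 tested gene of 5, Acat1, the mitochondrial thiolase, 3.54-fold higher in late than in early cells (limma adjusted p = 0.0302). Its adjusted p was 0.0821 and 0.116 without 6 and 12 hours and 0.0948 and 0.0805 without days 4 and 28.

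**Figure D5:**
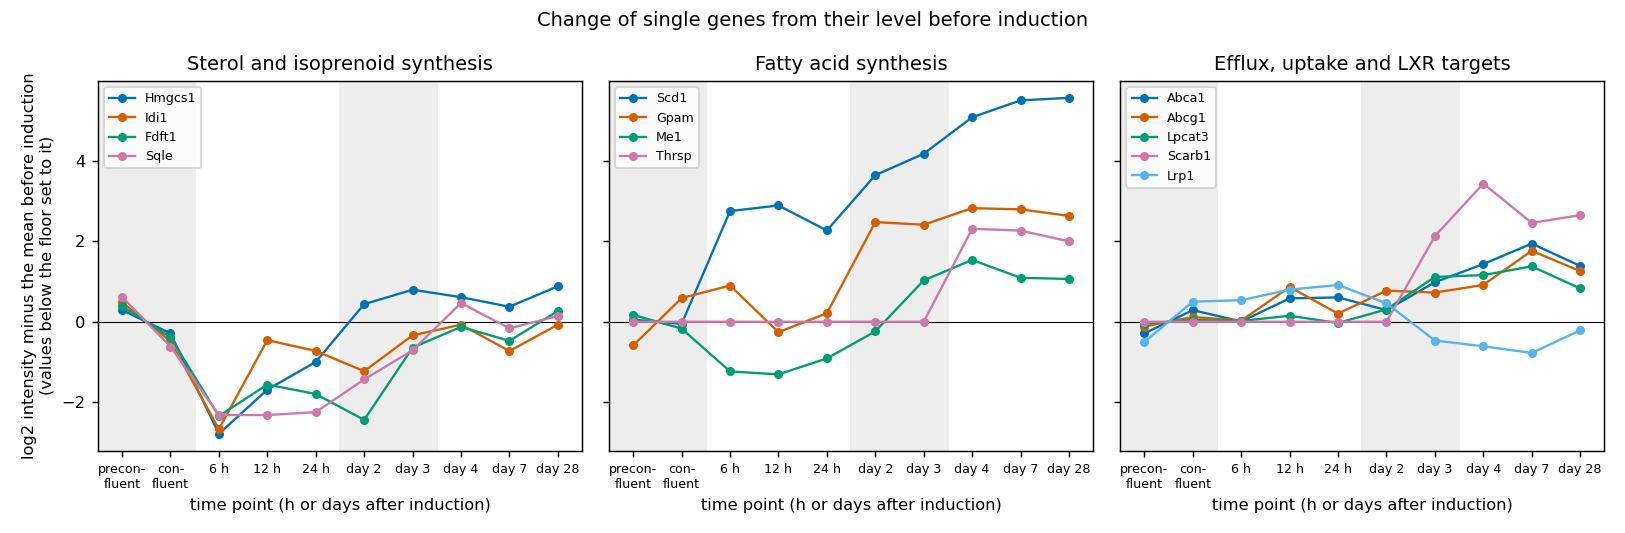
Log2 intensity minus the gene's mean over the 2 samples before induction, floored as in the tests, at the 10 time points in order with 1 array per point, for 4 sterol synthesis genes (left), 4 fatty acid synthesis genes (middle) and 5 efflux, uptake and LXR list genes (right); grey bands mark the samples before induction and days 2 and 3. The 4 sterol genes are at their deepest between 6 hours and day 2, while Scd1 is already high at 6 hours and Abca1, Abcg1 and Lpcat3 are highest on day 7.

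The genes most like each member in pattern were taken as the 5 single-symbol probe sets of 3630 candidates with the highest Pearson r over the 10 time points. For Sqle these were Prcc (0.949), Mcrs1 (0.911), G3bp2 (0.898), Lamtor3 (0.896) and Cars (0.887). For Fdft1 they were Skap2 (0.882), Flii (0.878), Prcc (0.868), Anxa7 (0.839) and Sqor (0.835). For the bright Hmgcs1 probe set they were Rnf14 (0.933), Suclg2 (0.915), Uqcrc1 (0.913), Plin2 (0.912) and Tkt (0.902), and for the dim one, with 5 samples at the floor, Gucd1 (0.914), Timm10 (0.908), Hint2 (0.887), Tbl2 (0.876) and Gtf2i (0.87). No candidate had a higher r with Fdft1 than Sqle had, and 0.0826% of the candidates had a higher r with Sqle than Fdft1 had.

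Plin2, a fat droplet coat protein, lay at 41, 103 and 945 at 6, 12 and 24 hours, against 1160 and 1200 before induction, and at 4410, 6010 and 4410 in late cells. Tkt, transketolase of the pentose phosphate pathway, lay at 119, 76 and 1290 at 6, 12 and 24 hours, against 1770 and 803 before induction. Both were thus at or below the floor at 6 and 12 hours, like Sqle, but at 945 and 1290 by 24 hours.

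RNA quality and cell division moved beside these changes. On array A the Gapdh control, 3-prime signal over 5-prime signal, lay at 1.61, 1.43 and 1.45 in early cells, at 1.14, 1.13 and 0.992 in late cells, and at 0.986 and 1.33 before induction. In middle cells it lay at 1.27 on day 2 and 1.60 on day 3. On these days Hmgcs1 lay at 2270 and 2910, Fdft1 at 443 and 1540 and Sqle at 251 and 415. The beta-actin ratio lay at 1.39, 1.41 and 1.45 in early cells and at 1.41 and 1.72 in middle cells. It lay at 1.33, 1.29 and 1.41 in late cells and at 1.05 and 1.48 before induction. Cdk1, a cell division kinase, lay at 5070 in preconfluent cells, 1910 in confluent cells and 1540, 2120 and 4750 at 6, 12 and 24 hours. The summed cycling markers (5 of 6 listed genes) lay between 1150 and 1540 in late cells, 1540 and 5543 in early cells and 1910 and 5842 before induction on array A. On array B they lay between 1100 and 1860 in late cells, 3425 and 11550 in early cells and 2989 and 9545 before induction. All 5 genes were lower in value in late than in early cells, the comparison in which Hmgcs1, Fdft1 and Sqle were called higher. Pcna, a DNA replication clamp, was called (2.94-fold lower in late cells, limma adjusted p = 0.0159, lost at 0.0577 without 12 hours and 0.058 without day 7). It was also called against cells before induction (2.57-fold lower in late cells, limma adjusted p = 0.0452, kept in 1 of 10 fits that left out 1 time point). The part of RNA quality or of cell division in the values of Hmgcs1, Fdft1 and Sqle was not tested.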

How the data were processed

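Per the labels, total RNA of 3T3-L1 cells was extracted with Trizol, labelled with biotin and measured on 2 Affymetrix array types, 20 arrays in all. The authors deposited a linear intensity per probe set. Its software is not given in the sources used here. On array A 22.8% to 25.5% of values were negative. Trimmed by 2% per tail, array means ran from 499.9 to 501.2, and this scaling by the authors was not altered.

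Symbols came from the platform annotation: of 13069 probe sets without controls, 7542 had 1 symbol, 224 several and 5303 none. Of 6137 genes with 1 symbol, 6123 were found in the RefSeq table. The floor, set before log2, was the absolute 10th percentile over an array type (136 on A, 156 on B). Probe sets above 182 (A) or 156 (B) in at least 2 samples were tested, 7582 in all. Planned comparisons of 4 stages and a natural spline (3 degrees of freedom) over time order were fitted per array type, using limma 3.58.1 under R 4.3.3, on 6 residual degrees of freedom for the stages. Benjamini-Hochberg adjustment ran over both types together, per comparison, with a call at an adjusted p under 0.05. Late against early was added after the values were seen. Folds are ratios of geometric means. Where samples of the dimmer stage lay at the floor, "at least" marks the smaller of that ratio and the ratio of arithmetic means.

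The members and lists were chosen with earlier results of these data known. Genes named were the members, the tested cholesterol synthesis genes, up to 3 called genes per other list and comparison with the largest change, and the 5 most correlated probe sets per member. Of genes with several probe sets the brightest was counted, and values of Cdk1, Plin2, Tkt, Npc1 and the cell type markers were picked out after they were seen. The fit was tested on simulated data with 3 sizes of early change. For early against before, 89.4% of 66 probe sets changed by 3 on the log2 scale were called. So were 65.2% of 66 changed by 2 and 30.9% of 68 changed by 1, and 7 of the unchanged probe sets. The simulated noise was normal and independent between samples around a flat level, with no floor applied. These rates need not hold for the series itself. Precision is limited by the number of arrays, since intensities carry no counts. The labels do not say whether both array types used the same RNA extract.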

Additional observations from a re-analysis of the deposited data

How the results depend on the processing

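Late against early was kept for Hmgcs1 and Sqle under all 15 alternatives (adjusted p 0.00166 to 0.042 and 0.00204 to 0.045), and the trend of Sqle under all 17 (0.00118 to 0.0466). The Sqle call early against before was kept under 2 of 15 alternatives (adjusted p 0.0223 to 0.292), the Hmgcs1 call middle against early under 3 of 15 (0.0151 to 0.337) and the Fdft1 call late against early under 8 of 15 (0.0102 to 0.133). With a floor 2 times as high the Sqle change early against before was -1.32, by construction smaller. The trend call was kept under 12 of 17 alternatives for Hmgcs1, 13 of 17 for Fdft1 and 4 of 17 for Lss (probe set aa670835_at). A spline with 2 degrees of freedom gave a limma trend adjusted p of 0.191 for Hmgcs1 and 0.752 for Lss. Without the filter that of Fdft1 was 0.139. With the floor at 0.5 of its value the dim Hmgcs1 probe set was called late against early (1.25, adjusted p = 0.0453).

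Without the filter, where more features share the adjustment, fewer probe sets were called in all 6 tests: 632 for the trend, 15 early against before, 15 middle against early, 12 late against middle, 412 late against before and 514 late against early, against 1274, 27, 79, 22, 826 and 1040. Late against middle gave 35 at 0.5 of the floor. At 2 times the floor there were 65 early against before, 46 middle against early and 9 late against middle. Leaving out 1 time point gave 915 to 1255 for the trend, 0 to 46 early against before (0 by limma without 12 hours, with 509 at an unadjusted p under 0.05), 15 to 136 middle against early, 2 to 116 late against middle, 317 to 766 late against before and 489 to 992 late against early. The cause of these shifts was not tested.

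Signs turned for changes that were not called. Hmgcs1 late against middle was -0.03 with quantile normalization, and between -0.17 and 0.18 with 1 time point left out (the dim probe set -0.21 to 0.48). Leaving out 1 time point gave -0.54 to 1.26 for Fdft1 middle against early, -0.50 to 0.27 and -0.47 to 0.76 for Fdft1 and Sqle late against before, -0.10 to 2.23 for Lbr and -0.51 to 0.38 for Ebp early against before, and -0.29 to 0.29 for the brighter Lss probe set late against early. By Spearman correlation, of the 5 genes most like each member 3 were shared for Sqle, 2 for Fdft1, and 1 for each Hmgcs1 probe set. No paired analysis was possible because no time point has a replicate and the replicate numbers only name samples. Where 1 sample was left in a stage, its spread was taken from the other stages.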
